A study of Mus musculus with 18 samples.

Results

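The 10 genes described here, mt-Nd1, mt-Nd2, mt-Co1, mt-Co2, mt-Atp6, mt-Co3, mt-Nd4, mt-Nd5, mt-Nd6 and mt-Cytb, lie on the mouse mitochondrial chromosome and encode subunits of the respiratory chain and of ATP synthase. They were taken from the count table by Ensembl gene identifier through their symbols in GENCODE M21. All 10 were found among 55414 gene identifiers, and they make up 10 of the 13 protein-coding genes of a chromosome that carries 37 annotated genes. All 10 passed the filter on low counts in each comparison. Polyadenylated RNA was sequenced from wild-type C57BL/6J mice in 4 groups. These were whole spleens after 30 days of PM2.5, fine airborne particles (n = 4), whole spleens after 30 days of filtered air (n = 4), macrophages isolated from spleens of PM2.5 mice (n = 5) and macrophages isolated from spleens of air mice (n = 5). The labels describe the macrophages as a second experiment. Its protocol speaks of filtered air after the 30 days, and whether this was a period of recovery is not stated. PM2.5 is called CAP in the sample titles, and the replicates are called biological without naming animals. The sources used here do not give the age of the mice or the method by which the macrophages were isolated.

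The mitochondrial chromosome is read from both strands into long RNAs, which are cut into transfer RNAs, ribosomal RNAs and messenger RNAs, and most of the messengers then receive short poly(A) tails. The messengers encode core subunits that sit in the inner mitochondrial membrane. The Nd genes belong to complex I, which oxidises NADH, mt-Cytb to complex III, the Co genes to complex IV, cytochrome oxidase, and mt-Atp6 to complex V, ATP synthase. The remaining subunits, and all subunits of complex II, are encoded in the nucleus and imported. The spleen holds mostly lymphocytes, together with red pulp macrophages, which remove aged red cells, and erythroid precursors, which still carry mitochondria.

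The identifiers and places of the genes on the mitochondrial chromosome of GRCm38 are those of GENCODE M21, in which all 10 are single-exon protein-coding genes. mt-Nd1 (ENSMUSG00000064341) lies at chrM:2751-3707 on the plus strand and is 957 bases long. mt-Nd2 (ENSMUSG00000064345) lies at chrM:3914-4951 on the plus strand and is 1038 bases long. mt-Co1 (ENSMUSG00000064351) lies at chrM:5328-6872 on the plus strand and is 1545 bases long. mt-Co2 (ENSMUSG00000064354) lies at chrM:7013-7696 on the plus strand and is 684 bases long. mt-Atp6 (ENSMUSG00000064357) lies at chrM:7927-8607 on the plus strand and is 681 bases long. mt-Co3 (ENSMUSG00000064358) lies at chrM:8607-9390 on the plus strand and is 784 bases long. mt-Nd4 (ENSMUSG00000064363) lies at chrM:10167-11544 on the plus strand and is 1378 bases long. mt-Nd5 (ENSMUSG00000064367) lies at chrM:11742-13565 on the plus strand and is 1824 bases long. mt-Nd6 (ENSMUSG00000064368) lies at chrM:13552-14070 on the minus strand and is 519 bases long. mt-Cytb (ENSMUSG00000064370) lies at chrM:14145-15288 on the plus strand and is 1144 bases long.

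The genes differed in how much of their sequence also occurs elsewhere in the annotated transcripts, and this bears on which counts can be assigned to them. On chromosome 1, chr1:24611535-24616197 (GRCm38, minus strand), 7 annotated pseudogenes in 4663 bases repeat a stretch of mitochondrial DNA. Gm28661 matched bases 1 to 681 of the 684 bases of mt-Co2 with 0 differences. Gm10925 matched bases 1 to 678 of mt-Atp6 and Gm28437 bases 1 to 783 of mt-Co3, each with 0 differences. Gm28439 matched the first 876 of the 1378 bases of mt-Nd4 with 0 differences. Gm29216 covered bases 1054 to 1545 of mt-Co1 with 6 differences, an identity of 98.78%. Counted from base 1 of mt-Co1, with the base of mt-Co1 first, these were T1056A, C1057T, A1059G, A1060G, C1062A and A1066T. The sequences below, from the GENCODE M21 transcripts and each written 5′ to 3′ in the direction of its gene, show the start of mt-Co2, the point in mt-Co1 at which the copy begins and the point in mt-Nd4 at which it ends. Capitals mark bases that are the same in the gene and its nuclear copy.
mt-Co2: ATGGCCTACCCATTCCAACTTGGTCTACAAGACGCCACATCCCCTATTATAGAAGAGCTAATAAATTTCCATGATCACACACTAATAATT
Gm28661: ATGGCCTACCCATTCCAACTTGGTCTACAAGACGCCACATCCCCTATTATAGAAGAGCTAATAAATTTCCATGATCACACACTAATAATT
mt-Co1: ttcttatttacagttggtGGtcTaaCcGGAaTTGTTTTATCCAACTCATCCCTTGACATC
Gm29216: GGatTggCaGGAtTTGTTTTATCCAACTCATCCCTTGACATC
mt-Nd4: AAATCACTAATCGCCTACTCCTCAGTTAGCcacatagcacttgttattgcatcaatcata
Gm28439: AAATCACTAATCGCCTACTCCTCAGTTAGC
The stretches shown are bases 1 to 90 of mt-Co2, bases 1036 to 1095 of mt-Co1 and bases 847 to 906 of mt-Nd4, with the part of each copy that lies opposite. Of all windows of 50 bases, 100% in mt-Co2, 99.86% in mt-Co3 and 99.53% in mt-Atp6 also occurred in the transcript of another gene. The share was 62.23% in mt-Nd4, 51.14% in mt-Co1, 8.19% in mt-Nd2 and 7.606% in mt-Nd5, and 0 in mt-Nd1, mt-Nd6 and mt-Cytb. Over all 18 libraries, mt-Co2 had 7895 counts and its copy Gm28661 had 10868. mt-Atp6 had 4716 counts and Gm10925 had 7240, and mt-Co3 had 6872 and Gm28437 had 5973. mt-Co1 had 5572489 counts, against 5488 for Gm29216 and 8764 for Gm13340, a pseudogene on chromosome 2 that holds 27.47% of its 50-base windows. The counts of mt-Co2, mt-Atp6 and mt-Co3 are therefore uncertain, since reads from gene and copy cannot be told apart by sequence. How reads with several matches were treated is not stated in the sources used here. The counts and levels per length of mt-Nd4 and mt-Co1 carry the same limit over their shared windows.

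The last bases of mt-Nd5 and mt-Nd6 face each other and overlap by 14 bases. The last 60 bases of both, again from the GENCODE M21 transcripts in the direction of each gene, are shown because counts of this pair are followed below. Capitals mark the overlap.
mt-Nd5: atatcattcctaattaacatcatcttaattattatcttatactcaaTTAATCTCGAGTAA
mt-Nd6: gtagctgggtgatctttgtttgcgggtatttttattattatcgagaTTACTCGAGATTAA
mt-Nd6 is the member on the opposite strand from the other 9, and its coding strand held 28.13% G and 5.973% C, where those of the other members held between 7.996% and 16.12% G. The sources used here do not say whether the counting used the strand. Without it, reads from the opposite strand across mt-Nd6 or mt-Nd5 would be counted to the gene annotated there.

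Per length, mt-Co1, the catalytic subunit of cytochrome oxidase, had the highest level in all 4 groups. It averaged 9067 ± 5378 CPM per kilobase (CPM, counts scaled to a common library total within each preparation) in PM2.5 spleens, against 13229 ± 6205 in air spleens (SD, n = 4 each). In macrophages it averaged 8584 ± 1001 CPM per kilobase after PM2.5, against 8121 ± 812 after air (SD, n = 5 each). mt-Cytb, the cytochrome b of complex III, came next, with means from 3240.1 to 6529 CPM per kilobase over the 4 groups, followed by mt-Nd1, a membrane subunit of complex I, with 2306 to 5835. Within every library the order of these 3 was the same. mt-Nd2 and mt-Nd4, 2 further membrane subunits of complex I, were next in spleen and changed places between libraries. In 4 of 4 PM2.5 and 4 of 4 air spleens mt-Nd6 stood above mt-Nd5 per length, with 1524 ± 889.5 and 1289 ± 845 CPM per kilobase in PM2.5 spleens, against 1751 ± 697 and 1387 ± 636 in air spleens. In macrophages mt-Nd5 stood above mt-Nd6 in 4 of 5 PM2.5 libraries and in 5 of 5 air libraries. The 3 members with whole nuclear copies were lowest, between 12.4 CPM per kilobase for mt-Atp6 in air macrophages and 54.3 for mt-Co2 in air spleens. mt-Co1 took 47.3% of the members' counts in PM2.5 spleens and 47.1% in air spleens, and 52.8% in PM2.5 macrophages and 53.1% in air macrophages.

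**Figure D1:**
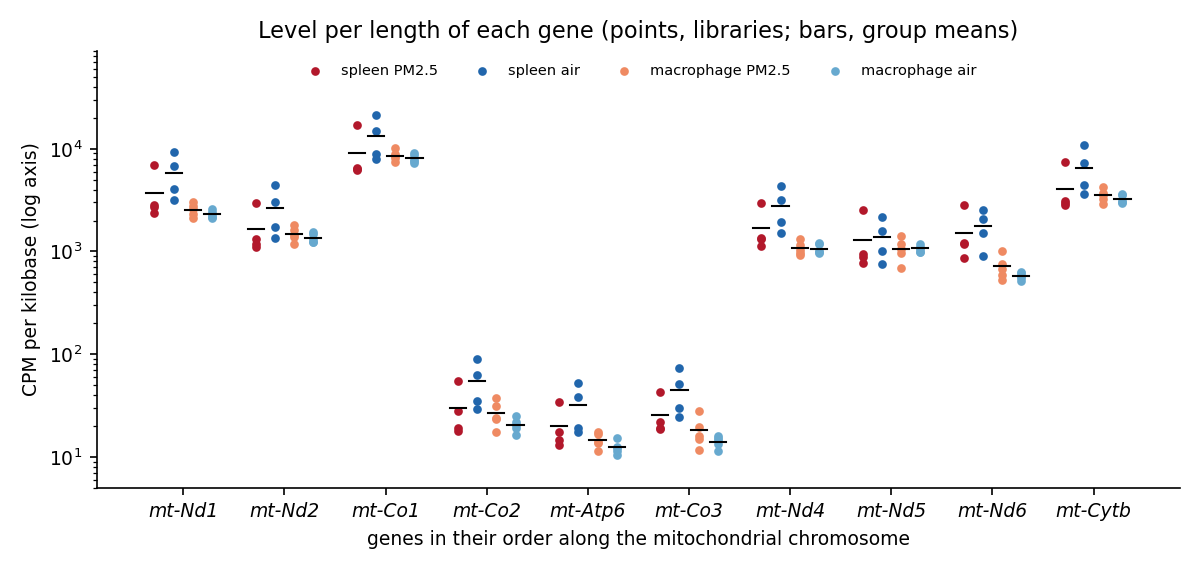
Level per length of the 10 genes in each library, as CPM per kilobase on a log axis, with the genes in their order along the mitochondrial chromosome; points are libraries and bars group means, with PM2.5 left of air. mt-Co1 is highest in all 4 groups, and mt-Co2, mt-Atp6 and mt-Co3 lie far below the other 7 genes.

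**Figure D2:**
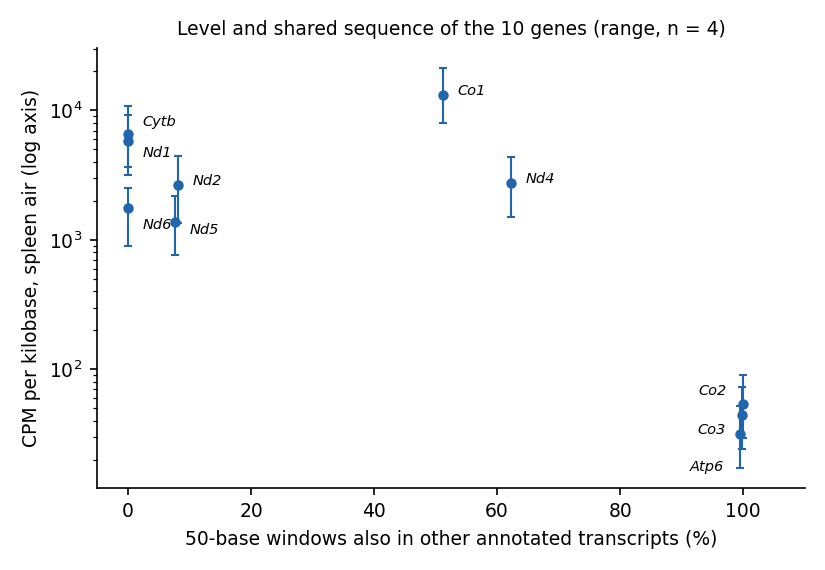
Mean level per length in air spleens (CPM per kilobase on a log axis; bars span the lowest to the highest of 4 libraries) against the percentage of 50-base windows that also occur in other annotated transcripts. The 3 genes at 99.53% to 100% are the 3 lowest, while mt-Co1 at 51.14% is the highest.

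Some libraries stood apart. Total counts were 16493694 to 20352346 per spleen library and 18107264 to 33844807 per macrophage library. The 10 genes together took 2.12, 5.39, 2.28 and 2.3% of all counts in PM2.5 spleen replicates 1 to 4, against 6.41, 2.57, 4.58 and 2.83% in air spleen replicates 1 to 4. PM2.5 replicate 2 and air replicates 1 and 3 were above 4%, and the other 5 spleens were under 3%. The 95% binomial interval (Wilson score) of the highest share, in air replicate 1, was 6.40% to 6.43%, and it covers counting error only. In macrophages the shares were 2.32, 2.39, 2.61, 3.03 and 2.16% in PM2.5 replicates 1 to 5, against 2.19, 2.65, 2.21, 2.29 and 2.48% in air replicates 1 to 5, a narrower range. Macrophage PM2.5 replicate 1 has a treatment tag that reads air, against its title, and was grouped by its title. It differed from the other 9 macrophage libraries in the proportions among the members, as given below. Its summed level of 10 red pulp macrophage markers, 17966 CPM, lay within the range of the other macrophage libraries, which had 12311 to 17261 CPM after PM2.5 and 14344 to 19757 CPM after air. Its summed level of 6 nuclear-retained long RNAs, which vary with RNA quality and the share of nuclear RNA, was 1442 CPM, below the 1850.2 to 2087 CPM of the other PM2.5 and the 1879.9 to 2129 CPM of the air macrophages. Whole spleens had 617 to 907 CPM of the red pulp macrophage markers after PM2.5, against 416 to 734 CPM after air.

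**Figure D3:**
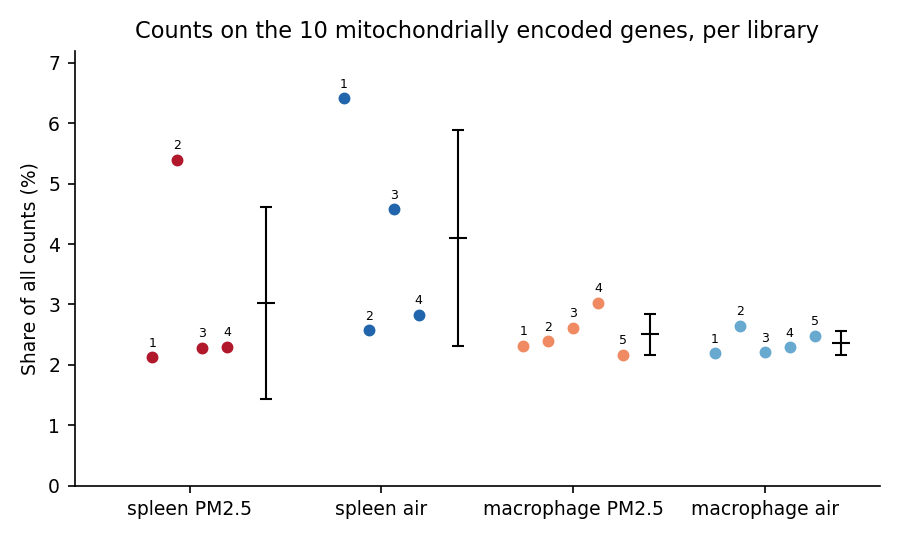
Share of all counts that fell on the 10 genes in each library, in percent, with PM2.5 left of air in each preparation; numbers are replicates and the bars beside the points show mean and SD. Spleens range from 2.12% to 6.41% with both exposures mixed, and macrophages from 2.16% to 3.03%.

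The first comparison set whole spleens of PM2.5 mice against those of air mice. All 10 genes had a log2 fold change below 0, where 48.2% of all genes did, and 0 passed the threshold of an adjusted p under 0.05. When libraries were scaled by their totals alone, which moved the median of all genes to 0.145, mt-Nd5 stood at 0.018 and the other 9 stayed below 0. In spleen replicates 1 to 4, mt-Co1 had 9692, 26471, 9954 and 9919 CPM after PM2.5, against 33026, 12324, 22757 and 13649 CPM after air. The high PM2.5 replicate 2 lay above 3 of the 4 air spleens, and the groups overlapped. Its log2 fold change was -0.54 (SE 0.403, 95% interval -1.43 to 0.34, adjusted p = 0.534). mt-Nd1 had 2273, 6678, 2609.7 and 2722 CPM after PM2.5, against 8841, 3062, 6528 and 3905 CPM after air, with the same libraries high. Its log2 fold change was -0.65 (SE 0.40, 95% interval -1.53 to 0.24, adjusted p = 0.451). For mt-Cytb the log2 fold change was -0.68 (SE 0.392, 95% interval -1.54 to 0.19, adjusted p = 0.418), and the order of the libraries was similar, with 3217, 8484, 3424 and 3567 CPM after PM2.5 and 12319.5, 4162, 8265 and 5133 CPM after air. The remaining membrane subunits of complex I had the same libraries high. mt-Nd2 had 1145, 3106, 1230.1 and 1383 CPM after PM2.5, against 4595, 1402, 3168 and 1803 CPM after air, and a log2 fold change of -0.68 (SE 0.405, 95% interval -1.57 to 0.22, adjusted p = 0.436). mt-Nd4 had 1542, 4046, 1854 and 1808 CPM after PM2.5, against 6022, 2062, 4418 and 2686 CPM after air, and a log2 fold change of -0.72 (SE 0.374, 95% interval -1.54 to 0.11, adjusted p = 0.366). 

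The 3 members with whole nuclear copies had few counts in the same libraries. mt-Co2, which receives electrons from cytochrome c, had 12.3, 37.3, 19.2 and 13.1 CPM after PM2.5, against 61.7, 20.2, 42.6 and 24 CPM after air, with a log2 fold change of -0.86 (SE 0.415, 95% interval -1.77 to 0.053, adjusted p = 0.326). mt-Co3, a structural core subunit of complex IV, had 14.5, 33.3, 17 and 14.9 CPM after PM2.5, against 56.9, 19, 40.2 and 23.3 CPM after air, with a log2 fold change of -0.81 (SE 0.368, 95% interval -1.62 to 0.0034, adjusted p = 0.301). mt-Atp6, part of the proton channel of ATP synthase, had 9.96, 23.3, 11.8 and 8.95 CPM after PM2.5, against 35.7, 11.8, 26 and 13 CPM after air, with a log2 fold change of -0.68 (SE 0.40, 95% interval -1.56 to 0.20, adjusted p = 0.425). In all 3 the groups overlapped, and PM2.5 replicate 2 and air replicates 1 and 3 were again high. The copies Gm28661, Gm28437 and Gm10925 had log2 fold changes of -0.88, -0.86 and -0.65.

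2 members lay nearer to 0. mt-Nd5, a membrane subunit of complex I, had 1416, 4654, 1599.8 and 1736 CPM in PM2.5 spleens, against 3979, 1389, 2917 and 1833 CPM in air spleens. PM2.5 replicate 2 was the highest of the 8 libraries, and the log2 fold change was -0.11 (SE 0.416, 95% interval -1.02 to 0.81, adjusted p = 0.923). mt-Nd6, the complex I subunit encoded on the other strand, had 445, 1472, 631 and 616 CPM in PM2.5 spleens, against 1301, 465, 1078 and 793 CPM in air spleens. Here too PM2.5 replicate 2 was the highest, and the log2 fold change was -0.20 (SE 0.381, 95% interval -1.04 to 0.64, adjusted p = 0.828). Over the 10 members the median log2 fold change was -0.68, beside 0.017 over all 16551 genes tested. By edgeR's quasi-likelihood test with Benjamini-Hochberg adjustment over all genes, 0 of the 10 passed, 0 had an unadjusted p under 0.05, and in 0 did the groups fail to overlap. Over all genes 0.0121% passed, 16.7% had an unadjusted p under 0.05 and in 8.95% the groups did not overlap. DESeq2 and limma-voom also called 0 members, with 2 and 0 at an unadjusted p under 0.05, where 18% and 15.9% of all genes had one. This number varied between edgeR runs, with 0 members called in each. It was 7 in a joint fit with the macrophage libraries (24.3% of all genes) and 5 without a filter (12.7%). Without air replicate 2 it was 5 (20%), and it was 0 with library totals or a robust fit. The median became -1.09 without PM2.5 replicate 2, with 8 members at an unadjusted p under 0.05 (15.3% of all genes) and 0 called, and -0.33 without air replicate 1, where mt-Nd5 and mt-Nd6 were above 0. In these bulk samples, fewer cells of a type and less RNA per cell cannot be told apart.

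**Figure D4:**
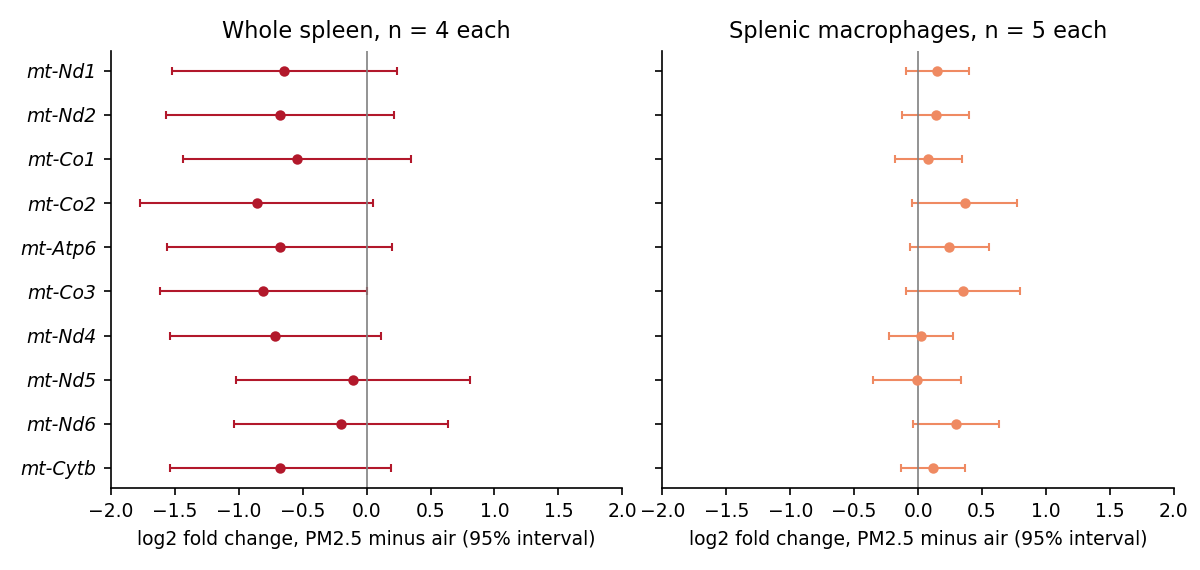
Log2 fold change of each gene, PM2.5 minus air, with its 95% interval, in whole spleen (left) and in splenic macrophages (right), genes in their order along the chromosome. In spleen all 10 points lie below 0 and in macrophages between -0.0071 and 0.37, and every interval includes 0.

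Most nuclear genes of the same complexes also had a log2 fold change below 0 in spleen. Of the nuclear-encoded complex I subunits, 22 of 23 had a log2 fold change below 0 and 17 had an unadjusted p under 0.05, with a median of -0.42. Ndufs6, an accessory subunit, had -0.68 (SE 0.172, adjusted p = 0.126). Of complex III and cytochrome c 8 of 10 genes were below 0 (median -0.45), of complex IV 10 of 10 (median -0.45), of complex V 13 of 14 (median -0.39) and of complex II 4 of 4 (median -0.32). Unadjusted p-values under 0.05 were found for 6, 9, 9 and 2 of them. Cox6b1, a complex IV subunit, had -0.69 (SE 0.173, adjusted p = 0.126), and Uqcrq of complex III -0.59 (SE 0.148, adjusted p = 0.126). Over all genes 48.2% were below 0 and 7.76% were lower with an unadjusted p under 0.05. None of these nuclear subunits passed the threshold. The summed level of the 10 complex IV genes was 1067, 1363, 1264 and 1273 CPM in PM2.5 replicates 1 to 4, against 1963, 1384, 1673 and 1737 CPM in air replicates 1 to 4. The groups did not overlap in this sum. Without PM2.5 replicate 2, of which the members' level was high, the numbers below 0 were 22 of 23 in complex I, 9 of 10 in complex III and cytochrome c, 10 of 10 in complex IV, 14 of 14 in complex V and 4 of 4 in complex II.

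Genes that transcribe and maintain mitochondrial DNA were below 0 for 13 of 16, with a median log2 fold change of -0.23 and 2 at an unadjusted p under 0.05. Tfam, the factor that packages mitochondrial DNA and opens its promoters, had -0.44 (SE 0.131, adjusted p = 0.147). Mterf1a, named for transcription termination, had -0.43 (SE 0.178, adjusted p = 0.264). Of the genes for processing and stability of mitochondrial RNA, 15 of 20 were below 0, with a median of -0.080. Slirp, which binds mitochondrial messengers together with Lrpprc, had -0.58 (SE 0.253, adjusted p = 0.281), and Fastkd5, which acts in the processing of these messengers, had -0.95 (SE 0.311, adjusted p = 0.171). Regulators of mitochondrial biogenesis were divided, with 5 of 9 above and 4 below 0. Of the genes for translation and assembly of cytochrome oxidase, 9 of 12 were below 0 (median -0.28), and 0 genes of these 4 lists were called.

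Markers of other cells also differed between the spleens. The summed level of 10 erythroid markers was 1051, 17858, 4692 and 10543 CPM in PM2.5 replicates 1 to 4, against 3368, 395, 522 and 819 CPM in air replicates 1 to 4. PM2.5 replicate 2, with the most, and air replicate 1, with the fourth most, were also 2 of the 3 spleens with the highest share of the members. Air replicate 3, the other of these 3, had the second lowest erythroid sum. All 10 erythroid and all 10 red pulp macrophage markers had a log2 fold change above 0, where 51.8% of all genes did, as had all 5 mesothelial markers, whose sum was 26.8, 39.6, 116 and 224 CPM after PM2.5, against 4.85, 4.6, 4.87 and 3.12 CPM after air. T cell markers were below 0 for 5 of 6 and B cell markers for 6 of 6. The sum of 6 nuclear-retained long RNAs was 2441, 2008, 2175 and 1974 CPM after PM2.5, against 1411, 1839, 1533 and 1409 CPM after air, with 3 of 5 tested above 0 and Malat1 at 0.78 (SE 0.163, adjusted p = 0.108). The groups did not overlap in this sum or in the mesothelial sum. The part of these differences in the values of the members was not tested.

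Of the 9 ratios of a member to mt-Nd1, 1 did not overlap between the 2 groups of spleens, that of mt-Nd5. mt-Nd1 was taken as the denominator because none of its windows occurs elsewhere, and these ratios were computed after the levels had been seen. Per count of mt-Nd1, mt-Nd5 had 0.623, 0.697, 0.613 and 0.638 counts in PM2.5 spleen replicates 1 to 4, against 0.45, 0.454, 0.447 and 0.469 in air spleen replicates 1 to 4. All 4 PM2.5 spleens lay above all 4 air spleens, with means of 0.643 ± 0.0376 and 0.455 ± 0.00996 (SD, n = 4 each). The exact two-sided permutation test gave p = 0.0286, the smallest that 4 against 4 can give, and 0.286 after adjustment over the 18 ratios to mt-Nd1 tested, 9 in each preparation. The ratio was thus higher in 4 of 4 libraries but did not pass the correction. With 4 against 4, even full separation cannot pass a correction over 18 ratios unless many other ratios have p-values as small. The adjusted value therefore cannot decide on this ratio. The groups also did not overlap for mt-Nd5 against mt-Nd2, mt-Co1, mt-Co2, mt-Co3, mt-Nd4 or mt-Cytb. Against mt-Atp6 and mt-Nd6 they overlapped. Of all 45 pairs of members, 8 did not overlap in spleen, and 7 of these held mt-Nd5. Without PM2.5 replicate 1, where fewer libraries separate more readily, 13 of 45 did not overlap. Of these, 7 held mt-Nd5 and 5 held mt-Nd6. In levels the groups did not overlap for 8.95% of all genes. The share among ratios of all genes was not computed. The ratios of mt-Nd5 all share its counts and are not separate support.

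mt-Nd6 per count of mt-Nd1 was 0.196, 0.22, 0.242 and 0.226 in PM2.5 spleen replicates 1 to 4, against 0.147, 0.152, 0.165 and 0.203 in air spleen replicates 1 to 4. PM2.5 replicate 1 lay below air replicate 4, and the other 3 PM2.5 spleens above all air spleens (exact permutation p = 0.0571, adjusted 0.343). For the other members the 2 spleen groups overlapped in this ratio. mt-Cytb, for example, averaged 1.33 ± 0.0618 per count of mt-Nd1 in PM2.5 spleens and 1.33 ± 0.0552 in air spleens (SD, n = 4 each). PM2.5 replicate 2, with the highest ratio of mt-Nd5, also had the highest erythroid sum and, among the PM2.5 spleens, the highest share of counts on the members. PM2.5 replicate 1, with a ratio of 0.623, had a lower erythroid sum than air replicate 1, with 0.45, and the other 3 PM2.5 spleens had higher sums than all 4 air spleens. The part of these differences in the ratio was not tested. When the libraries were scaled on the summed member counts and all genes were fitted, the log2 fold change of mt-Nd5 in spleen was 0.42 (SE 0.433, adjusted p = 0.606), and that of mt-Nd6 0.32 (SE 0.476, adjusted p = 0.664). With this scaling 2.76% of all genes passed, and 0 members did.

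**Figure D5:**
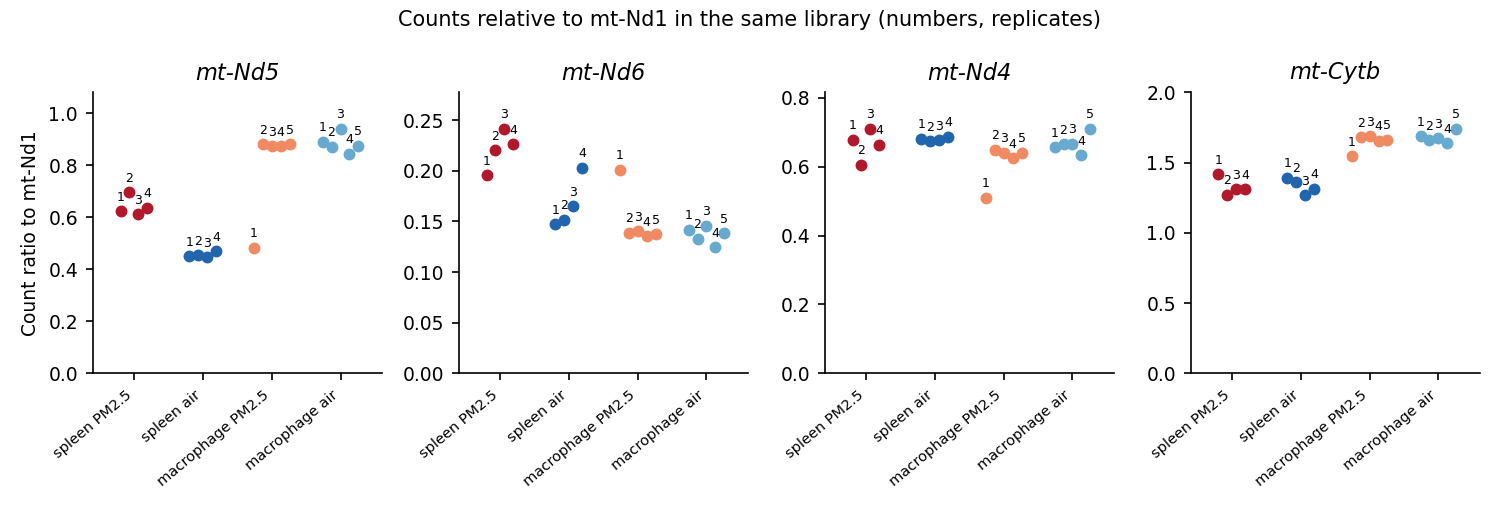
Counts of mt-Nd5, mt-Nd6, mt-Nd4 and mt-Cytb divided by the counts of mt-Nd1 in the same library, with PM2.5 left of air; points are libraries and numbers their replicates. For mt-Nd5 the 4 PM2.5 spleens (0.613 to 0.697) lie above the 4 air spleens (0.447 to 0.469), and macrophage PM2.5 replicate 1 lies apart from the other macrophage libraries in all 4 panels.

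The second comparison set macrophages of PM2.5 mice against those of air mice. The log2 fold change was above 0 for 9 of the 10 genes, where 51.4% of all genes were above 0. Their median was 0.14, beside 0.0062 over all genes, and 0 passed the threshold. In macrophage replicates 1 to 5, mt-Co1 had 13004, 12534, 13744, 15591 and 11442 CPM after PM2.5, against 11244, 14160.5, 11638, 12144 and 13549.9 CPM after air. The groups overlapped, and the log2 fold change was 0.08 (SE 0.121, 95% interval -0.18 to 0.34, adjusted p = 0.83). mt-Nd1 had 2625, 2199, 2489, 2922 and 2009.9 CPM after PM2.5, against 2017, 2475, 2065, 2158 and 2321 CPM after air, with a log2 fold change of 0.15 (SE 0.113, 95% interval -0.10 to 0.40, adjusted p = 0.652). PM2.5 replicate 4 was the highest of the 10 libraries for both genes. mt-Cytb had 4052, 3692, 4201, 4837 and 3342 CPM after PM2.5, against 3404, 4104, 3455, 3530.0 and 4041 CPM after air, with a log2 fold change of 0.12 (SE 0.115, 95% interval -0.13 to 0.37, adjusted p = 0.727). mt-Nd2 had 1512, 1449.5, 1693, 1884 and 1223 CPM after PM2.5, against 1288, 1607, 1275, 1361 and 1523 CPM after air, with a log2 fold change of 0.14 (SE 0.121, 95% interval -0.13 to 0.40, adjusted p = 0.702). mt-Nd4 had 1338, 1428, 1594, 1826 and 1287 CPM after PM2.5, against 1324, 1647, 1378, 1367 and 1648 CPM after air, with a log2 fold change of 0.021 (SE 0.115, 95% interval -0.23 to 0.27, adjusted p = 0.961). The libraries of both groups were mixed in their order for each of these genes, and the intervals were narrower than in spleen.

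The members with the largest log2 fold changes in macrophages had smaller ones without replicate 1. mt-Nd6 had 528, 305, 349, 395 and 276 CPM after PM2.5, against 286, 329.5, 301, 268 and 321 CPM after air, the first PM2.5 value being the highest. Its log2 fold change of 0.30 (SE 0.154, adjusted p = 0.516) became 0.13 without that library. mt-Co3 had 22.1, 12.6, 11.8, 15.2 and 9.2 CPM after PM2.5, against 8.93, 12.1, 11.4, 10.4 and 12.5 CPM after air, and its 0.35 became 0.13. mt-Co2 had 25.5, 16, 16.3, 21.2 and 11.9 CPM after PM2.5, against 11.1, 15, 13.2, 14.1 and 17.1 CPM after air, and its 0.37 became 0.21. Replicate 1 was the highest library for mt-Nd6, mt-Co3 and mt-Co2, and also for mt-Atp6. mt-Atp6 had 11.8, 9.34, 9.57, 11.5 and 7.71 CPM after PM2.5, against 7.14, 10.3, 8.33, 7.77 and 8.58 CPM after air, with a log2 fold change of 0.24 (SE 0.141, 95% interval -0.066 to 0.55, adjusted p = 0.56). Without replicate 1 this value became 0.17. mt-Nd5 had 1269, 1936, 2173, 2554 and 1773 CPM after PM2.5, against 1798, 2159, 1943, 1822 and 2032 CPM after air, with replicate 1 the lowest of the 10 libraries. Its log2 fold change of -0.0071 became 0.10. Without replicate 1 all 10 members were between 0.048 and 0.21, with a median of 0.12. The median was also 0.066 without PM2.5 replicate 4 and 0.213 without PM2.5 replicate 5. By edgeR's quasi-likelihood test 0 of the 10 were called, 0 had an unadjusted p under 0.05 and in 0 did the groups fail to overlap. Of all 15696 genes tested 0% passed, 10.9% had an unadjusted p under 0.05, and in 2.23% the groups did not overlap. DESeq2 and limma-voom called 0 members.

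Per count of mt-Nd1, mt-Nd5 had 0.483, 0.881, 0.873, 0.874 and 0.882 counts in PM2.5 macrophage replicates 1 to 5, against 0.891, 0.872, 0.941, 0.844 and 0.876 in air macrophage replicates 1 to 5. Replicate 1 was far below the rest, and the other 4 PM2.5 libraries lay within the air range, with a mean of 0.878 ± 0.00455 (SD, n = 4) against 0.885 ± 0.0357 (SD, n = 5; exact permutation p = 0.746). Its ratio of 0.483 was nearest to the 0.469 of air spleen replicate 4. In other ratios to mt-Nd1 this library lay outside the range of the spleens. It had 0.509 for mt-Nd4 and 1.54 for mt-Cytb, where PM2.5 and air spleens had 0.606 to 0.711 and 1.27 to 1.42. For mt-Nd6 replicate 1 had 0.201, within the range of the spleens, and the other 9 macrophage libraries lay between 0.124 and 0.146. The ratio of mt-Nd4 was 0.613 ± 0.0584 in PM2.5 and 0.667 ± 0.0279 in air macrophages (SD, n = 5 each; exact permutation p = 0.0317, adjusted over the 18 ratios 0.286), and the p was 0.0635 without replicate 1.

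The counts of nuclear-encoded subunits above 0 in macrophages depended on replicate 1. All 23 tested subunits of complex I, 4 of complex II, 10 of complex III and cytochrome c, 10 of complex IV and 14 of complex V had a log2 fold change above 0, with medians from 0.030 to 0.16, where 51.4% of all genes were above 0. Without replicate 1 the numbers above 0 were 15, 0, 5, 5 and 8, with medians from -0.047 to 0.020. The summed complex IV level was 1205, 744, 799, 774 and 781 CPM in PM2.5 replicates 1 to 5, against 745, 819.6, 828, 741 and 774 CPM in air replicates 1 to 5, so that replicate 1 stood above the other 9 libraries. With all libraries 1 nuclear subunit, Ndufs3 of complex I, had an unadjusted p under 0.05, at 0.26 (SE 0.115, adjusted p = 0.446). Lrpprc, which stabilises mitochondrial messengers, had 0.13 (SE 0.0526, adjusted p = 0.40), and Pde12, which removes their poly(A) tails, had 0.21 (SE 0.0813, adjusted p = 0.396). Of the RNA processing genes 18 of 20 were above 0, and 15 of 20 without replicate 1. Of the genes that transcribe and maintain mitochondrial DNA 11 of 16 were above 0, of the biogenesis regulators 4 of 9 and of the cytochrome oxidase assembly genes 7 of 12, with medians of 0.037, -0.014 and 0.11. None of these genes was called. Among markers of other cells, all 6 neutrophil markers and all 5 plasma cell markers had a log2 fold change above 0. These were not the only lists. Without replicate 1, 10 of 10 erythroid, 6 of 6 B cell and 4 of 6 T cell markers were also above 0. The neutrophil sum was 142, 42.1, 152, 40.9 and 108 CPM in PM2.5 replicates 1 to 5, against 19.3, 33, 17.3, 19.4 and 61.9 CPM in air replicates 1 to 5. The plasma cell sum was 4035, 1160.4, 1818, 3516 and 1651 CPM after PM2.5, against 584, 940.4, 603, 1948 and 680.3 CPM after air. The groups overlapped in both sums. Below 0 were 9 of 10 red pulp macrophage markers (8 of 10 without replicate 1), with Adgre1 at -0.49 (SE 0.146, adjusted p = 0.299), 4 of 5 dendritic cell markers and 4 of 4 endothelial markers, with Stab2 at -0.39 (SE 0.114, adjusted p = 0.298). The dendritic cell sum was 308, 390.0, 310.4, 285 and 355 CPM after PM2.5, against 549, 324, 590.0, 332 and 452 CPM after air. All 4 tested nuclear-retained RNAs were also below 0. The part of these markers in the values of the members was not tested.

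The third comparison asked whether the difference between PM2.5 and air was the same in both preparations. The log2 fold change in macrophages minus that in spleen was above 0 for all 10 members, with a median of 0.80, and 0 passed the threshold. The values were 1.23 (SE 0.468, 95% interval 0.25 to 2.21, adjusted p = 0.15) for mt-Co2 and 1.16 (SE 0.435, 95% interval 0.25 to 2.08, adjusted p = 0.142) for mt-Co3. For mt-Atp6 the value was 0.93 (SE 0.428, 95% interval 0.03 to 1.82, adjusted p = 0.229). These 3 were the members with an unadjusted p under 0.05, and they are those with whole nuclear copies. Without macrophage PM2.5 replicate 1, mt-Co2 was at 1.09, mt-Co3 at 0.97 and mt-Atp6 at 0.87. In that fit 2 members, mt-Co2 and mt-Co3, had an unadjusted p under 0.05 (18.2% of all genes). With that library counted as air, 0 members had one (13% of all genes). mt-Nd1 had 0.80 (SE 0.416, 95% interval -0.072 to 1.67, adjusted p = 0.286), mt-Cytb 0.80 (SE 0.409, 95% interval -0.057 to 1.66, adjusted p = 0.277) and mt-Nd5 0.10 (SE 0.453, 95% interval -0.84 to 1.05, adjusted p = 0.926). Over all 17779 genes tested 1.46% passed and 20.6% had an unadjusted p under 0.05, and 47.3% were above 0. Without spleen PM2.5 replicate 2 the median was 1.25, 9 members had an unadjusted p under 0.05 (21.5% of all genes) and mt-Co2 was called (log2 value 1.68, adjusted p = 0.0493), as were 2.02% of all genes in that fit. Without spleen air replicate 1 the median was 0.45 and mt-Nd5 was at -0.20. DESeq2 and limma-voom called 0 members. Of the nuclear subunits all 23 of complex I and all 10 of complex IV were above 0, with medians of 0.58 and 0.59, and 1 was called, Cox6b1, at 0.88 (SE 0.213, adjusted p = 0.047). Without macrophage PM2.5 replicate 1 it was not called. The exposures of the 2 preparations came from separate experiments, so experiment and preparation cannot be told apart.

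Between libraries of the same group the members moved together. Over the 8 spleens, the correlation of log2 levels after subtraction of the group means lay between 0.903 and 0.997 for the 45 pairs, with a median of 0.978. All pairs share the library and its scaling. Over the 10 macrophage libraries it lay between -0.324, for mt-Co3 and mt-Nd5, and 0.98, with a median of 0.74, and without PM2.5 replicate 1 between 0.561 and 0.986 with a median of 0.866. Of 9852 other genes with a mean of at least 10 CPM in spleen, those with the highest correlation with the members' mean were Gm10925 (r 0.995) and Gm28437 (r 0.988), the copies of mt-Atp6 and mt-Co3, then Rgs10 (r 0.988), a regulator of G protein signalling, Hat1 (r 0.987), a histone acetyltransferase, and Sri (r 0.985), the calcium-binding protein sorcin. Over the 10 macrophage libraries they were Zfp984 (r 0.927), a zinc finger gene, LTO1 (r 0.912), Gm10925 (r 0.909), Gm29216 (r 0.905) and Hspa13 (r 0.877), a member of the Hsp70 family. Without PM2.5 replicate 1 the first 5 were Gm29216, Zfp984, Odr4, Srp54c and Gm28437.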

How the data were processed

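Values are raw counts as deposited by the authors, whole read numbers per Ensembl gene identifier in 18 libraries, without normalization. The submitters' processing notes name FastQC 0.10.1, HTSeq 0.10.0 and the builds mm10 and GRCm38. Per the labels' protocols, RNA came from a Qiagen extraction and NEBNext Ultra II chemistry was used for library preparation. Aligner, annotation release, strand setting and the treatment of reads with several matches are not given in the sources used. Of 55414 gene identifiers 52081 matched a symbol in GENCODE M21, and the other 3333 carried 0.343% of the counts.

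Groups were taken from the titles. Macrophage PM2.5 replicate 1 carries an air treatment tag and was also left out and counted as air. Counts were fitted in R 4.3.3 with edgeR 4.0.16 after filterByExpr (minimum count 10, minimum total 15) and TMM scaling. The quasi-likelihood test was two-sided, with Benjamini-Hochberg adjustment over all genes tested and a threshold of 0.05, each preparation alone and the difference in a joint fit. Unless stated otherwise, edgeR gave each gene's adjusted p, SE and 95% interval. CPM are counts scaled to a TMM-adjusted library total, with filter and TMM factors of each preparation alone. CPM of spleens and of macrophages are thus not on a common scale. The labels call the replicates biological but name no animals. No 2 libraries of a group agreed within sampling noise. Ratios of counts were compared with exact permutation tests over libraries. Alternatives were DESeq2 1.42.0 and its size factors, limma-voom (limma 3.58.1), other scalings and filters, a robust fit, a replicate block, a joint fit of all libraries, another threshold (0.1) and leaving out each library in turn. Scaling on the member counts, other denominators of the ratios and the lists without 1 library were added after the data were seen. The steps were tested on simulated data.

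The members and all gene lists were chosen with earlier results of these data known. Named were all 10 members, the other mitochondrially encoded genes, up to 3 genes per list with the smallest p in a comparison, and the 5 nuclear genes per preparation most like the members' mean in log2 CPM, among genes of at least 10 CPM. The nuclear copies were named from their sequence. Sequences are those of the GENCODE M21 transcripts on GRCm38, and matches to transcripts were searched on both strands among annotated transcripts, so copies without one were not found.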

Additional observations from a re-analysis of the deposited data

Results flagged for a closer look

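Of 80 groups of values examined for a library far from the others of its group, 12 held one, where chance gives about 5%. The values are not independent, since 2 libraries account for all 12.

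Spleen PM2.5 replicate 2 lay far above the other 3 PM2.5 spleens in 8 of them. Its summed share of counts on the members was 5.39%, and the nearest other was 2.30%. Its levels were 6678 CPM for mt-Nd1, 3106 CPM for mt-Nd2, 26471 CPM for mt-Co1, 33.3 CPM for mt-Co3, 4046 CPM for mt-Nd4, 4654 CPM for mt-Nd5 and 8484 CPM for mt-Cytb. Air spleen replicates 1 and 3 had shares of 6.41% and 4.58%, so this share was the highest of its group but not of all spleens. Its mt-Nd5 level was also above that of every air spleen, of which replicate 1 was highest with 3979 CPM.

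Macrophage PM2.5 replicate 1 lay apart from the other 4 PM2.5 macrophage libraries in 4 ratios to mt-Nd1. They were 0.483 for mt-Nd5, 0.509 for mt-Nd4, 0.201 for mt-Nd6 and 1.54 for mt-Cytb, and the nearest others were 0.873, 0.625, 0.14 and 1.66.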

How the results depend on the processing

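The members were not called in spleen or in macrophages under any alternative run, and in the difference between the preparations mt-Co2 alone was called, without spleen PM2.5 replicate 2, so that leaving out 1 library gave 0 to 1 called members. Scaled on library totals, which moved the median log2 fold change of all genes to 0.145 in spleen and -0.159 in the difference, mt-Nd5 turned to 0.018 in spleen and -0.027 in the difference. Scaled on the summed member counts, which by construction removes their common part and moved the median of all genes to 0.59 in spleen, -0.076 in macrophages and -0.67 in the difference, the reversed log2 values were 0.0069 for mt-Co1, 0.42 for mt-Nd5 and 0.32 for mt-Nd6 in spleen, -0.0067 for mt-Co1 and -0.068 for mt-Nd4 in macrophages, and -0.014 for mt-Co1, -0.52 for mt-Nd5 and -0.11 for mt-Nd6 in the difference. With macrophage PM2.5 replicate 1 counted as air, mt-Co3 was at -0.087, mt-Nd5 at 0.19 and mt-Nd6 at -0.042 in macrophages. Leaving out 1 library gave ranges with both signs for mt-Nd5 (-0.64 to 0.20 in spleen, -0.13 to 0.10 in macrophages, -0.20 to 0.66 in the difference), for mt-Nd6 in spleen (-0.65 to 0.021) and for mt-Nd4 in macrophages (-0.065 to 0.070). The summed share of counts on the members, -1.07 percentage points in spleen and 0.139 in macrophages, ranged from -1.86 to -0.301 and from 0.0074 to 0.224. The ratio of mt-Nd5 to mt-Nd1 in spleen had a log2 value of 0.50. Against mt-Co1, mt-Cytb, mt-Nd4, the other 9 members or the ribosomal RNA genes mt-Nd5 had 0.41 to 0.62, and against mt-Nd6 0.080. Without 1 library the ratio to mt-Nd1 was 0.46 to 0.52 with an exact permutation p of 0.0571, the smallest that 3 against 4 can give. In macrophages the log2 ratio of mt-Nd5 was -0.30 against the ribosomal RNA genes (exact permutation p = 0.0397) but -0.16 (p = 0.0794) without PM2.5 replicate 1, and that of mt-Nd6 turned to -0.013, or -0.14 without it. Over all genes, 2 were called in spleen by edgeR. There were 1 with DESeq2's size factors, library totals, scaling without mitochondrial genes or limma-voom, 461 without a filter, 12 with a minimum of 1 CPM in all libraries of a group, 830 with DESeq2, 62 at a threshold of 0.1, 1050 in the joint fit, 456 scaled on the members and 0 to 219 without 1 library. In macrophages 0 were called, 1 without a filter or scaled on the members, 175 with DESeq2 and 0 to 17 without 1 library. In the difference 259 were called, 1044 with DESeq2, 3 with limma-voom, 1102 at a threshold of 0.1, 87 with macrophage PM2.5 replicate 1 counted as air, 421 scaled on the members and 68 to 1317 without 1 library. The cause of these changes was not tested. Whether equal replicate numbers pair the samples cannot be decided from so few libraries. Same-numbered spleens had correlations of deviations from -0.147 to 0.077, against -0.125 to 0.110 between different numbers. In macrophages they were -0.153 to 0.355, against -0.427 to 0.228. The highest macrophage values, 0.355 and 0.312, were those of same-numbered libraries. With a replicate block 0 members were called, and of all genes 3 in spleen, 0 in macrophages and 91 in the difference. The fewest counts among the members, between 156 and 929 per library, were those of mt-Co2, mt-Co3 and mt-Atp6.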

Other observations

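The other genes of the mitochondrial chromosome gave these values. Of its 22 transfer RNA genes, 21 had 0 counts in all 18 libraries. The remaining gene, mt-Tp on the minus strand, had 11248 counts over all 18 libraries. The ribosomal RNA genes mt-Rnr1 and mt-Rnr2 together took 0.105, 0.361, 0.146 and 0.127% of all counts in PM2.5 spleen replicates 1 to 4, against 0.452, 0.149, 0.322 and 0.204% in air spleen replicates 1 to 4, so that the libraries high for the messengers were also high for these. Their log2 fold changes in spleen were -0.76 (adjusted p = 0.416) for mt-Rnr1 and -0.71 (adjusted p = 0.481) for mt-Rnr2. In macrophages they were 0.28 and 0.30, with adjusted p-values of edgeR of 0.483 and 0.40. The 3 remaining protein-coding genes, mt-Nd3, mt-Nd4l and mt-Atp8, were at -1.11, 0.046 and -0.61 in spleen, and 0 of them were called in either preparation. mt-Nd3 and mt-Nd4l also have a copy on chromosome 1, Gm28438 with 1 difference over 345 bases (T3C, counted from base 1 of mt-Nd3) and Gm10222 with 0 differences over 294 bases.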
